A study of Homo sapiens with 8 samples.

Results

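The comparison set Reh cells transfected with IRF5-4D directly against Reh cells transfected with IKKβ(EE), 2 arrays against 2, out of the 8 arrays of the series. The arrays were chosen by their labels alone, and 19775 genes were compared. Reh is an established line derived from an acute lymphoblastic leukaemia of precursor B cells. IRF5-4D is a constitutively active variant of the transcription factor IRF5, and IKKβ(EE) is a constitutively active variant of the kinase IKKβ, the product of IKBKB. The other 4 arrays came from cells given control constructs (called mock here) and from cells given both variants together, 2 arrays each, and they entered the model that estimated the spread. All groups share the cell line and a transfection. The arrays of a group are biological duplicates that carry the numbers 1 and 3, and below the value of array 1 is given before that of array 3. The labels do not say what the numbers stand for, which vectors were used, how long after transfection cells were harvested or what share of them took up the DNA. P values therefore measure only the spread between these arrays.

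As background, IRF5 sits downstream of Toll-like receptors. Phosphorylation lets it enter the nucleus, where it binds interferon-type response elements and turns on interferon and inflammatory cytokine genes. IKKβ is the kinase that marks IκB proteins for degradation and so frees NF-κB dimers, which bind κB sites in genes of survival, adhesion and antigen presentation, and it can also phosphorylate IRF5. NF-κB is constitutively active in the Reed-Sternberg cells of Hodgkin lymphoma, which derive from mature B cells, whereas Reh represents an earlier B cell stage.

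In limma, 151 genes (0.764% of 19775) differed between the 2 constructs at a Benjamini-Hochberg adjusted p under 0.05. Of these, 62 (0.314%) were higher with IRF5-4D, led by RIN2, the chemokines CCL4 and CCL8, the interleukin 1 antagonist IL1RN, FRMD3 and DKK1. The other 89 (0.450%) were higher with IKKβ(EE), led by RNF144B, LAMP3, HLA-DQA1, BCL2A1, EBI3 and FAS. Differences are given on the log2 scale as IRF5-4D minus IKKβ(EE), so a positive value is higher with IRF5-4D. At least a 2-fold difference was found for 52 and 66 of the called genes and at least a 4-fold difference for 13 and 17, respectively. The smallest called difference was 0.71, the median standard error (SE) over all genes was 0.14, and the median difference over all genes was 0.0071. An unadjusted p under 0.05 was found for 1513 genes. RNA came from whole cultures, so a larger share of responding cells and more RNA per responding cell cannot be told apart.

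Large differences were fewer between arrays of the same construct than between constructs, while the typical difference was of similar size. Over the genes, the IRF5-4D arrays correlated at r = 0.996 and the IKKβ(EE) arrays at 0.997, against 0.993 to 0.994 between constructs. A difference of at least 1 on the log2 scale separated the 2 arrays of a construct for 39 and 53 genes, and arrays of different constructs for 201 to 277 genes. The median absolute difference over the genes was 0.142 between the IRF5-4D arrays and 0.131 between the IKKβ(EE) arrays, against 0.135 to 0.165 between constructs. With 2 arrays a group the count of calls fell whichever of the 4 arrays compared was left out. Leaving out IRF5-4D replicate 1 left 44 called genes and leaving out its replicate 3 left 42. Leaving out IKKβ(EE) replicate 1 left 43 and its replicate 3 left 69, against 148 without either mock array and 182 without either combination array. Of the 151 genes, 26 were called in every 1 of these 8 fits, 12 higher with IRF5-4D and 14 higher with IKKβ(EE). Among them were RIN2, IL1RN, CCL8, FRMD3, DKK1, FCRLA, FCGR2A, PLAUR, KIT and HSPA6 on the IRF5-4D side, and RNF144B, LAMP3, HLA-DQA1, MROCKI, LINC00158, ACTA2, NR4A3, FSCN1, IL4R and INHBA on the IKKβ(EE) side. Values of genes outside the 26 are given below with the arrays without which the call was lost. Leaving out 1 of 2 arrays weakens the test whichever array is dropped. A lost call alone therefore does not show that the difference depended on that array. RTP4, for example, lost its call without each of the 4 arrays compared, while its difference stayed at 0.90 to 0.91.

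**Figure D1:**
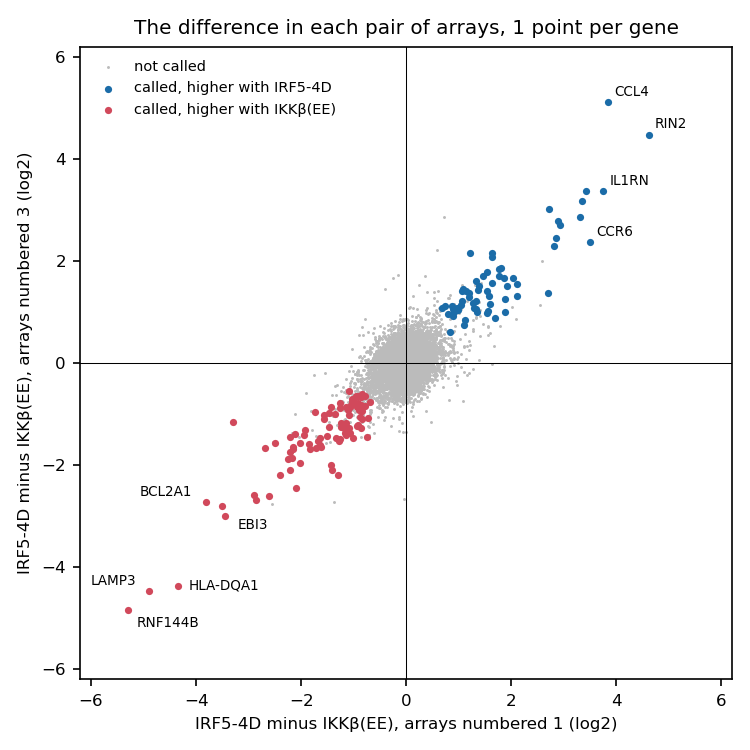
Difference IRF5-4D minus IKKβ(EE) of each of 19775 genes in the arrays numbered 1 (x axis, log2) and in those numbered 3 (y axis, log2); blue and red points are genes called at an adjusted p under 0.05. The 62 blue points lie in the upper right and the 89 red points in the lower left, and over all genes the 2 differences correlated at r = 0.527.

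The label of the IKKβ(EE) arrays was checked on the transfected gene. Probe set 211027_s_at of IKBKB read 12.57 and 10.98 with IKKβ(EE) against 4.68 and 4.60 with IRF5-4D, 4.80 and 4.06 in mock and 11.11 and 9.33 with both variants. The difference was -7.14 (SE 0.59, limma adjusted p = 0.00115 in a fit of every probe set), and it lay between -7.94 and -6.35 with 1 array left out. The other IKBKB probe sets, 209341_s_at and 209342_s_at, differed by -0.09 and -0.22 and were not called. No probe set of IRF5 was called between the constructs. The one with the largest difference, 205468_s_at, read 5.65 and 5.66 with IRF5-4D and 5.13 and 5.04 with IKKβ(EE), 0.57 apart (SE 0.17, limma adjusted p = 0.394), and 205469_s_at and 239412_at differed by 0.16 and 0.02. The label IRF5-4D is thus not checked by the transfected gene on these arrays. Of 8 precursor B cell markers 7 were measured, and CD79A, PAX5, EBF1, MME, DNTT and RAG1 lay above the upper quartile of the genes in all 4 arrays, while VPREB1, a surrogate light chain gene, lay between 4.07 and 4.24, below the gene median.

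**Figure D2:**
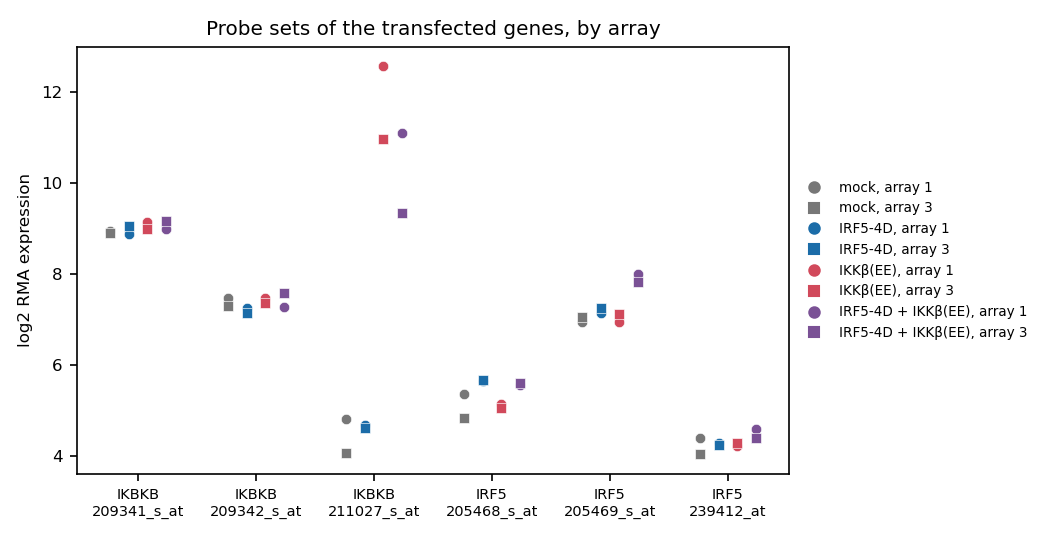
Log2 expression (y axis) of every probe set of IKBKB and IRF5 (x axis) on the 8 arrays, with colours for the 4 groups and circles and squares for arrays 1 and 3. Only 211027_s_at of IKBKB stands high in the arrays given IKKβ(EE), at 9.33 to 12.57, and the IRF5 probe sets show no such step with IRF5-4D alone.

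Promoters of genes from both sides are shown because the variants act through factors with different binding sequences. RefSeq windows on GRCh38.p14, from 250 bases before to 50 after a start, were found for 46 of the 62 genes (86 windows, since a gene can have several starts) and 70 of the 89 (121 windows). An interferon regulatory factor motif, GAAANNGAAA on either strand, stood in 12 windows (14%) of genes higher with IRF5-4D, in 7 (5.79%) of genes higher with IKKβ(EE) and in 3.02% of the 21490 windows of all genes of the fit (3.57% of the 35116 windows in the table). The κB motif on either strand stood in 4 (4.65%), 11 (9.09%) and 6.58% (5.91% in the table), and the 2 motifs overlapped each other in 2 of all windows and in none of these. The IRF motif was found at CCR6, FCGR2B, FCRLA, FRMD3, IFIT1, IFIT5, IL1RN, MX1, NCF1 and RTP4 among the genes higher with IRF5-4D, and at ACTA2, BCL2A1, DMD, SCN1A-AS1, SGK1, SIDT1 and SMARCA2 among those higher with IKKβ(EE). The κB motif was found at AFTPH-DT, CD83, CD86, FAS, FSTL5, IL4R, INAVA, PTPN3, TNFRSF9 and ZDHHC23 among the genes higher with IKKβ(EE), and at LTA, LTB and SERINC2 among those higher with IRF5-4D. Printed are the 150 bases before a start, 5′ to 3′ on the strand of the gene, with motif matches in capitals. IL1RN, RNF144B and HLA-DQA1 stand for the largest differences with an entry in the table, and the others were chosen after their values were seen as genes with a match; RIN2, CCL4 and LAMP3 are only named.
IL1RN, chr2:113127339-113127488, plus strand: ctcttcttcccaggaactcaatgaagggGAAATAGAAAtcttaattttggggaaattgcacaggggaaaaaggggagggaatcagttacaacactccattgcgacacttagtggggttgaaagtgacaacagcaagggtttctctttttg
FCRLA, chr1:161707079-161707228, plus strand: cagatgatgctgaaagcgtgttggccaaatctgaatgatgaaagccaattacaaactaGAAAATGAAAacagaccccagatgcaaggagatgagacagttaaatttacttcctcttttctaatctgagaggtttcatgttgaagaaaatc
IFIT1, chr10:89392473-89392622, plus strand: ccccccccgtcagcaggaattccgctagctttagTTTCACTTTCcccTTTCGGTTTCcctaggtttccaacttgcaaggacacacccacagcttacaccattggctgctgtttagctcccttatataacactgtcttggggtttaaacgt
IFIT5, chr10:89414418-89414567, plus strand: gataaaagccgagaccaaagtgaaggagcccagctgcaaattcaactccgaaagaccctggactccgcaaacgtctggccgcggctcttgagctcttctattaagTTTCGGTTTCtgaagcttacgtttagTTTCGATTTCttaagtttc
RNF144B, chr6:18387200-18387349, plus strand: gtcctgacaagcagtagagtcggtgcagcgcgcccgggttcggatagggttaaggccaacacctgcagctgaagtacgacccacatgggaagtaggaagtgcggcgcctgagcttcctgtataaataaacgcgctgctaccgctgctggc
HLA-DQA1, chr6:32637256-32637405, plus strand: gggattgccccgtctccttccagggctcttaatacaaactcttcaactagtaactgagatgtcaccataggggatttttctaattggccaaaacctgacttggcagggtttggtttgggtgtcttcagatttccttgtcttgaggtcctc
IL4R, chr16:27313824-27313973, plus strand: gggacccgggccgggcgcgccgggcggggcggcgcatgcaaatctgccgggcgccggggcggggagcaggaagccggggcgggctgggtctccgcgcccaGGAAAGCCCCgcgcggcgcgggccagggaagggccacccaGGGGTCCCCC
TNFRSF9, chr1:7940840-7940989, minus strand: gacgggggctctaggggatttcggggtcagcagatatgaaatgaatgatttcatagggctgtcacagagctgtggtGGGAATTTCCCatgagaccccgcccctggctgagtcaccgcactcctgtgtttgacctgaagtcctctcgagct
BCL2A1, chr15:79971197-79971346, minus strand: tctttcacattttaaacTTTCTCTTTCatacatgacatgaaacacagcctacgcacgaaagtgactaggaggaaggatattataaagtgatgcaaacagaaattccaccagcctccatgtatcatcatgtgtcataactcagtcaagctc
The first 4 belong to genes higher with IRF5-4D and hold the IRF motif, 2 times each at IFIT1 and IFIT5. The last 5 belong to genes higher with IKKβ(EE): IL4R and TNFRSF9 hold matches to the κB motif, BCL2A1 holds the IRF motif, and the bases shown for RNF144B and HLA-DQA1 hold neither. A match is a stretch of letters and no measurement of binding.

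The largest difference toward IRF5-4D was that of RIN2, an exchange factor of the endocytic GTPase RAB5. It read 8.60 and 8.21 with IRF5-4D and 3.98 and 3.72 with IKKβ(EE), which differ by 4.55 (SE 0.28, limma adjusted p = 0.00017). The IKKβ(EE) values lay beside mock, at 3.56 and 4.03, and near the lower quartile of an array (3.67 to 3.73), so the size of the fold is uncertain. CCL4, a chemokine that draws T cells and monocytes, read 12.85 and 12.61 against 9.01 and 7.48, a difference of 4.48 (SE 0.57, limma adjusted p = 0.00837). Both constructs had higher CCL4 means than mock, at 6.28 and 4.49, but only the rise with IRF5-4D was called (7.35, against 2.86 for IKKβ(EE) at a limma adjusted p of 0.0897). IL1RN, the secreted antagonist of interleukin 1, read 7.93 and 7.33 against 4.19 and 3.97 and was 11.8-fold higher with IRF5-4D. CCL8, a monocyte chemokine, read 7.29 and 7.22 against 3.86 and 3.84, a 10.6-fold difference. The IKKβ(EE) values of IL1RN and CCL8 were also not far above the lower quartile, so these folds are likewise of uncertain size. Of RIN2, CCL4, IL1RN and CCL8, CCL8 alone was lower with both variants, at 4.79 and 5.42, than with IRF5-4D. The mean of all its probe sets brought RIN2 to 2.33 and IL1RN to 0.97, both still called. The CCL4 call was lost without IRF5-4D replicate 1 (4.36), IRF5-4D replicate 3 (4.60) or IKKβ(EE) replicate 3 (3.72) and with limma's robust variance (adjusted p = 0.0589).

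Next came genes of signalling, trafficking and immune receptors. FRMD3, which codes for a FERM domain protein, read 7.68 and 7.63 with IRF5-4D and 4.34 and 4.44 with IKKβ(EE), and its 3 probe sets were all called higher with IRF5-4D. DKK1, a secreted antagonist of Wnt signalling, read 9.24 and 9.09 against 5.92 and 6.22, an 8.52-fold difference. CCR6, the receptor of CCL20 on B and T cells, read 7.05 and 5.87 against 3.55 and 3.49, and its IRF5-4D arrays lay far apart. RAB11FIP1, an effector of RAB11 in membrane recycling, read 10.13 and 9.87 against 7.28 and 7.42, and PLAUR, the urokinase receptor, 9.19 and 8.84 against 6.38 and 6.54. The aspartic protease pseudogene NAPSB differed by 2.87, the cytotoxic granule protease gene GZMA by 2.04 and the bromodomain protein gene CECR2 by 1.89. These genes were named on the condition that their 2 groups of arrays did not overlap, which held for 38.4% of all genes in either direction. CCR6 was not called without any 1 of the 4 arrays compared (2.35 to 3.52) or with robust variance (limma adjusted p = 0.13). It has 1 probe set, so its difference stayed at 2.93 in the fit on means of probe sets. It was not called there either (limma adjusted p = 0.0502). The GZMA call was lost without IRF5-4D replicate 1 (1.63), IKKβ(EE) replicate 1 (1.79) or IKKβ(EE) replicate 3 (2.29), that of CECR2 without IRF5-4D replicate 3 (1.78) or IKKβ(EE) replicate 3 (1.75), and that of NAPSB without IRF5-4D replicate 1 (2.68). CECR2 fell to 0.89 as the mean of its probe sets.

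Toward IKKβ(EE) the largest difference was that of RNF144B, an E3 ubiquitin ligase. It read 5.07 and 4.96 with IRF5-4D and 10.36 and 9.81 with IKKβ(EE), which differ by -5.07 (SE 0.23, limma adjusted p = 3.28e-05) or 33.5-fold. Cells given both variants lay between, at 7.55 and 6.92. LAMP3, a lysosomal membrane protein of mature dendritic cells, read 4.23 and 4.05 against 9.12 and 8.52, a 25.7-fold difference. Its IRF5-4D values were not far above the lower quartile of an array (3.67 to 3.73), so the size of this fold is uncertain. HLA-DQA1, the alpha chain of the MHC class II molecule DQ, read 7.30 and 6.73 against 11.64 and 11.10, with mock at 4.90 and 3.73. It was called above mock with both constructs, by 7.06 with IKKβ(EE) and by 2.70 with IRF5-4D, and it was the 1 gene of the 89 called above mock with IRF5-4D. The mean of all probe sets gave -2.34 for RNF144B and -1.48 for HLA-DQA1, both still called; the other HLA-DQA1 probe sets, 213831_at and 236203_at, differed by -0.12 and 0.03.

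Genes of survival, cell death and inflammation followed. BCL2A1, an anti-apoptotic BCL2 relative, read 3.21 and 3.58 with IRF5-4D and 7.01 and 6.30 with IKKβ(EE), which differ by -3.26 (SE 0.46, limma adjusted p = 0.0132). Its IRF5-4D values lay below the lower quartile of an array (3.67 to 3.73), so the size of this difference is uncertain. EBI3, a subunit of interleukins 27 and 35, read 4.38 and 4.40 against 7.84 and 7.41. FAS, the death receptor, read 5.91 and 5.95 against 9.42 and 8.75, and 4 of its 5 probe sets were called. CXCL8, the neutrophil chemokine, read 8.37 and 8.05 against 11.23 and 10.74, and cells given both variants had 7.56 and 7.30, below either construct alone. SGK1, a serum- and glucocorticoid-regulated kinase, read 9.68 and 9.09 against 12.57 and 11.69 and was likewise nearer the IRF5-4D level in the combination (10.04 and 9.53). ICAM1, an adhesion ligand of leukocyte integrins, read 7.69 and 7.13 against 9.78 and 9.58. All 6 calls were lost in fits that left out single arrays. BCL2A1 (-3.61 to -2.91), CXCL8 (-3.03 to -2.53) and ICAM1 (-2.55 to -2.0) were not called without any 1 of the 4 arrays compared, and EBI3 (-3.24 to -3.02), FAS (-3.18 to -2.82) and SGK1 (-3.04 to -2.30) not without either IRF5-4D array or IKKβ(EE) replicate 1. With robust variance the limma adjusted p was 0.086 for BCL2A1, 0.0595 for CXCL8, 0.0644 for SGK1 and 0.0589 for ICAM1.

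The remaining large differences on this side were of mixed function. The long noncoding RNA MROCKI differed by -2.62, with 4.24 and 3.76 against 6.86 and 6.38, and LINC00158 by -2.29, with 6.43 and 6.53 against 8.83 and 8.72. TNFAIP6, a hyaluronan-binding protein of inflammation, differed by -2.22, and its IKKβ(EE) arrays were 6.99 and 5.67. TMEM120A, a membrane protein gene, had means of 7.97 ± 0.0996 with IRF5-4D and 10.12 ± 0.181 with IKKβ(EE) (SD, n = 2). KCNJ2, a potassium channel, had a different shape: IRF5-4D arrays at 6.95 and 7.84 lay below mock (8.72 and 9.12) and IKKβ(EE) arrays at 9.63 and 9.51 above it, yet neither was called against mock. The TMEM120A call (-2.29 to -2.03) was lost without any 1 of the 4 arrays compared, that of KCNJ2 without IRF5-4D replicate 1 (-1.73), IKKβ(EE) replicate 1 (-2.11) or IKKβ(EE) replicate 3 (-2.23) and with robust variance (adjusted p = 0.0589). TNFAIP6 (-2.63 to -1.56 without 1 array) was not called without either mock array, either IRF5-4D array or IKKβ(EE) replicate 1, with robust variance (limma adjusted p = 0.141), with the mean of probe sets (0.0502) or in a fit of the 4 arrays alone (0.0681).

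**Figure D3:**
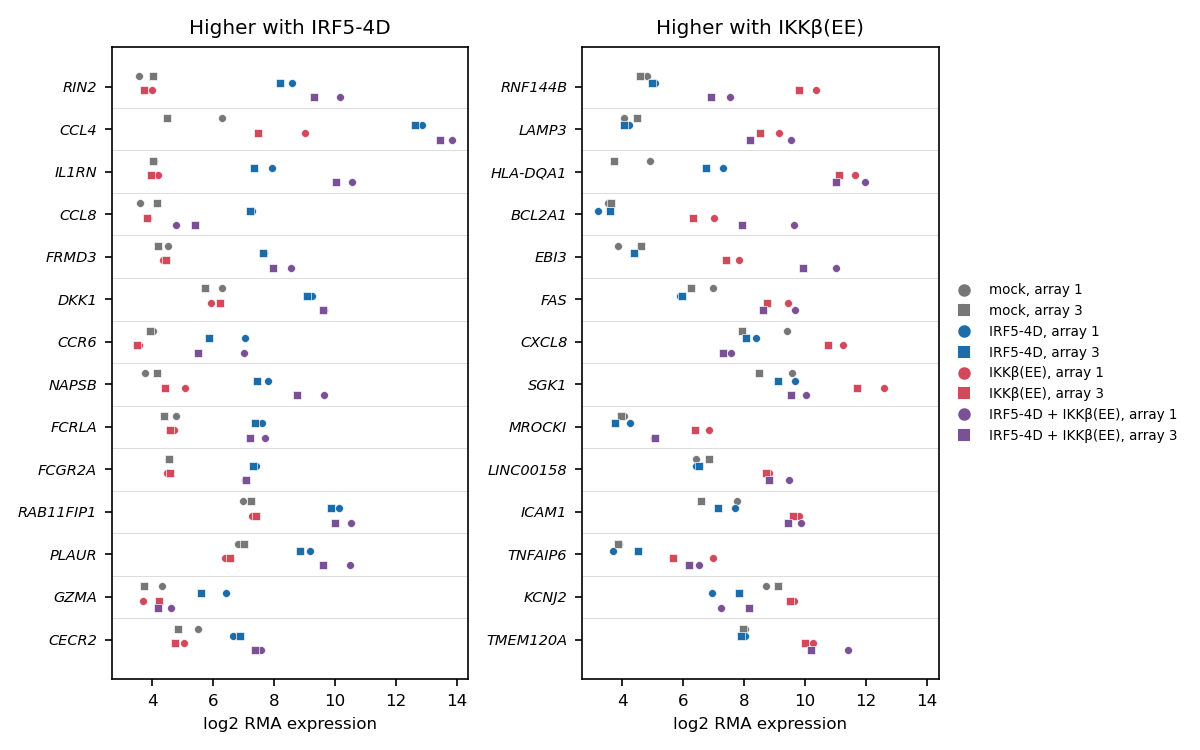
Log2 expression (x axis) on each of the 8 arrays of the 14 genes with the largest differences in each direction (y axis); colours mark the groups, circles array 1 and squares array 3. The choice of genes required groups that do not overlap. Blue (IRF5-4D) therefore lies right of red (IKKβ(EE)) in the left panel and left of it in the right panel. The purple combination arrays vary from gene to gene, as in CCL8 at 4.79 and 5.42.

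Placed against mock, the called genes were mostly rises with 1 construct beside little change with the other. Against mock, 63 genes (0.319%) were called with IRF5-4D and 102 (0.516%) with IKKβ(EE), and these contrasts share the mock arrays with each other and the construct arrays with the direct comparison. All 62 genes higher with IRF5-4D had a mean above mock with IRF5-4D, at a median difference of 1.38, and 43 were called there. With IKKβ(EE) their median difference from mock was 0.013, and 49 of the 62 lay within 0.5 of mock. The 89 genes higher with IKKβ(EE) had a median of 1.26 above mock with IKKβ(EE), where 62 were called, and of -0.065 with IRF5-4D, where 75 lay within 0.5 of mock. NIBAN3, a gene expressed in B cells, was the 1 gene of the 62 called above mock with both constructs: it read 9.89 and 10.05 with IRF5-4D, 8.81 and 8.60 with IKKβ(EE) and 7.65 and 7.73 in mock. For 19 of the 62 and 27 of the 89 genes neither construct was called against mock, so their call rests on the direct comparison. ACTA2, a smooth muscle actin gene, had means on opposite sides of mock, with IRF5-4D at 5.91 and 5.88, mock at 6.78 and 6.62 and IKKβ(EE) at 8.16 and 7.76; only its rise with IKKβ(EE) was called (1.26), and the direct difference of -2.07 became -0.69 as the mean of its probe sets.

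In cells given both variants most of the 62 genes stood nearer to IRF5-4D, while the 89 were divided about as all genes were. Over all 19775 genes, the combination mean was nearer to IRF5-4D for 9481 and to IKKβ(EE) for 10294. It lay above both constructs for 6694 genes, between them for 5859 and below both for 7222. Of the 62 genes higher with IRF5-4D, 54 had a combination mean nearer to IRF5-4D than to IKKβ(EE), 34 had it above both constructs and 28 between them. Their median difference from mock in the combination was 1.55. Of the 89 genes higher with IKKβ(EE), 42 were nearer to IKKβ(EE) and 47 nearer to IRF5-4D in the combination, 17 lay above both, 68 between and 4 below both, and the median difference from mock was 0.44. The IKBKB probe set that marks IKKβ(EE) read 12.57 and 10.98 with IKKβ(EE) alone and 11.11 and 9.33 in the combination; its part in these values was not tested. EBI3 and BCL2A1 were among the 17, at 10.99 and 9.92 and at 9.64 and 7.91 in the combination, and LAMP3 was close to its level with IKKβ(EE) alone, at 9.54 and 8.20.

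**Figure D4:**
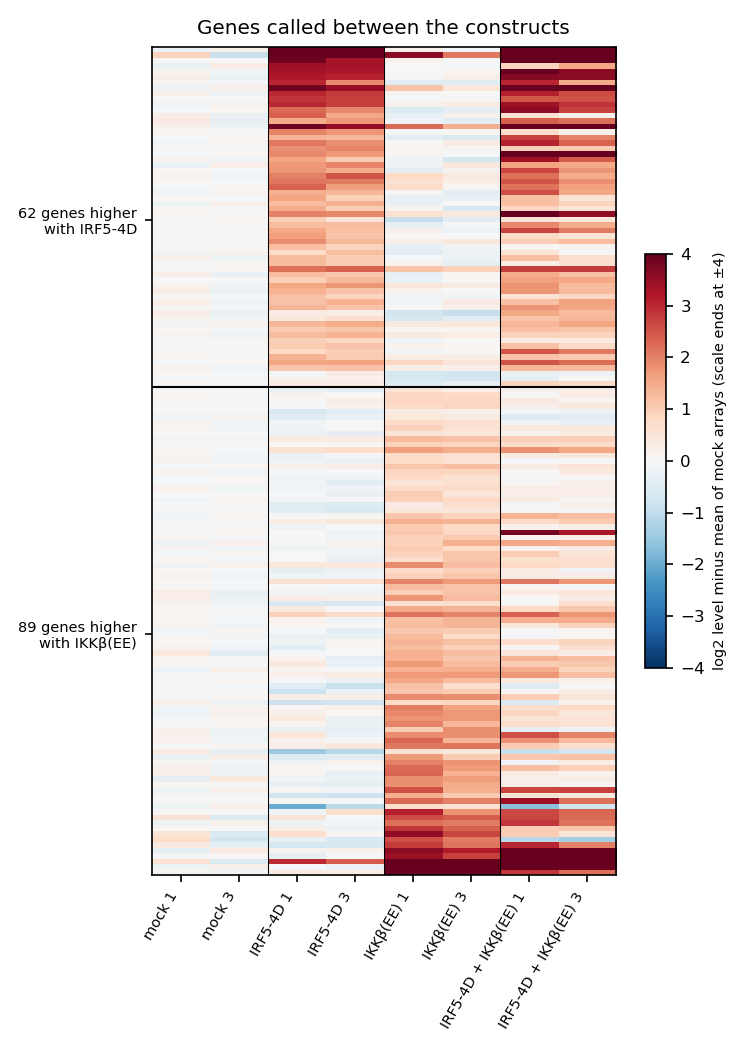
The 151 called genes (rows, ordered by difference) on the 8 arrays (columns), coloured by log2 level minus the mean of the mock arrays, on a scale that ends at plus and minus 4. Most of the upper 62 rows are red with IRF5-4D and near white with IKKβ(EE), most of the lower 89 rows show the reverse, and the combination columns are red across most upper rows and mixed across the lower ones.

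Genes were also read by role, from 28 lists. Since some were chosen with results of these data in view, lists are described by counts and medians only, beside the median of 0.0071 and the 0.764% called among all genes. Of all 19775 genes, 10265 had a difference above 0 and 9510 below 0. Among the regulators themselves little was called on the probe sets that represented them. IKBKB stood in its list by 209341_s_at (-0.09, not called) rather than by 211027_s_at (-7.14). As the mean of its probe sets IKBKB was called (-2.48, limma adjusted p = 0.00408). Of 8 measured IRF family members none was called, with IRF8 at -0.49 and IRF4 at -0.27 the largest. TANK, an adaptor of the IKK-related kinases, was the 1 of 14 genes of the IKK complex and related kinases to be called, at -1.37 (9.29 and 8.79 with IRF5-4D, 10.54 and 10.27 with IKKβ(EE)), though not without IRF5-4D replicate 3 (-1.12) or IKKβ(EE) replicate 1 (-1.23). None of 16 NF-κB subunits and inhibitors was called; 13 of the 16 had a negative difference and the list median was -0.22, between -0.39 and -0.05 with 1 array left out. The deubiquitinase gene CYLD differed by -1.05 (limma adjusted p = 0.0909) and the subunit gene RELB by -0.82.

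NF-κB targets were called in both directions. Of 40 measured, 6 were higher with IKKβ(EE), namely BCL2A1, EBI3, CXCL8, ICAM1 and the costimulatory and maturation markers CD86 (-1.30) and CD83 (-1.24), and 4 were higher with IRF5-4D, namely CCL4, CCL5, LTA and LTB. The list median was -0.24, and -0.36 to -0.06 with 1 array left out. CCL5, a chemokine that draws T cells, read 11.39 and 11.03 with IRF5-4D, 9.77 and 8.95 with IKKβ(EE) and 7.71 and 7.31 in mock. Its difference of 1.85 passed narrowly (SE 0.34, limma adjusted p = 0.0477) and was called, of the 8 fits that left out an array, only in those without a combination array (1.44 to 2.26). Its limma adjusted p was 0.128 with robust variance, 0.0537 with every probe set fitted on its own and 0.0608 among genes above the median level. LTA and LTB, the chains of lymphotoxin, read 9.14 and 9.09 against 7.76 and 7.59, and 11.72 and 11.95 against 10.43 and 10.88. The call of LTB was also lost as the mean of its probe sets (0.55) and in the fit of every probe set. LTA (1.36 to 1.53), LTB (0.96 to 1.40) and CD83 (-1.34 to -1.14) were not called without any 1 of the 4 arrays compared, and CD86 (-1.30 to -1.03) not without either IRF5-4D array or IKKβ(EE) replicate 1.

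Interferon-stimulated genes did not move as a block. Of 52 measured, IFIT1 (1.23), IFIT5 (1.17), the antiviral GTPase gene MX1 (1.02) and RTP4 (0.91) were higher with IRF5-4D, LAMP3 was higher with IKKβ(EE), and 34 of the 52 had a difference below 0, with a list median of -0.12 (-0.22 to -0.05 with 1 array left out). IFIT1, an RNA-binding antiviral protein gene, read 9.95 and 10.15 with IRF5-4D, 8.89 and 8.74 with IKKβ(EE) and 8.54 and 8.24 in mock. IFIT5, of the same family, read 9.21 and 9.02 against 7.86 and 8.03. Their relatives IFIT2 and IFIT3 differed by -0.60 and -0.59 and were not called. CXCL10, an interferon-induced T cell chemokine, read 5.56 and 4.79 against 7.10 and 6.35, a difference of -1.55 that was not called (limma adjusted p = 0.216), and CXCL11, a ligand of the same receptor, read 7.58 and 6.0 against 4.99 and 4.00 and was not called either (2.29, limma adjusted p = 0.0755). IFIT1, MX1 and RTP4 were not called without any 1 of the 4 arrays compared (1.13 to 1.33, 0.97 to 1.06 and 0.90 to 0.91), nor IFIT5 without IRF5-4D replicate 1 (1.08) or IKKβ(EE) replicate 1 (1.09). All 18 measured interferon ligand genes lay below the median of all genes in the 4 arrays, and none was called.

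Among chemokines, the 3 CC members called, CCL4, CCL8 and CCL5, were all higher with IRF5-4D (of 20 measured, list median 0.10), and CXCL8 was the 1 called of 18 CXC and other members. Of 20 chemokine receptors, CCR6 (2.93) and the scavenger receptor ACKR3 (1.14) were called. ACKR3 read 6.79 and 6.74 with IRF5-4D and 5.72 and 5.52 with IKKβ(EE), with mock at 6.72 and 6.18; it was not called without any 1 of the 4 arrays compared (1.04 to 1.24) and came to 0.56 as the mean of its probe sets. CCR7, the receptor that guides cells to lymph nodes, was called above mock with both constructs, by 2.87 and 3.32, and did not differ detectably between them (-0.45, SE 0.38). Of 39 interleukins and IL1 family members, IL1RN was higher with IRF5-4D, and EBI3 and the T and NK cell growth factor IL15 (-1.01) were higher with IKKβ(EE), IL15 not without any 1 of the 4 arrays compared (-1.10 to -0.92).

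In the TNF superfamily the ligands LTA and LTB stood on the IRF5-4D side, while the receptors FAS, TNFRSF9 (-2.04) and TNFRSF4 (-0.71) and the ligand CD70 (-1.18) were higher with IKKβ(EE), out of 37 measured. TNFRSF9, the costimulatory receptor 4-1BB, read 4.66 and 4.50 with IRF5-4D and 7.16 and 6.07 with IKKβ(EE). CD70, the ligand of CD27, read 9.93 and 10.02 against 11.29 and 11.02. The TNFRSF9 call was lost without IRF5-4D replicate 1 (-2.11) or IRF5-4D replicate 3 (-1.96) and as the mean of its probe sets (-0.86), and that of CD70 without IRF5-4D replicate 1 (-1.14), IRF5-4D replicate 3 (-1.22) or IKKβ(EE) replicate 1 (-1.05). TNFRSF4 was called in none of the fits that left out an array (-0.84 to -0.58), and its difference was 0.19 without _x_at probe sets, a suffix for probes that can match more than 1 transcript. TNF itself differed by 1.05 and was not called (limma adjusted p = 0.337).

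MHC class II genes had lower means with IRF5-4D than with IKKβ(EE) almost throughout. Of 17 measured, 16 had a difference below 0, and the list median was -0.34 (-0.38 to -0.31 with 1 array left out). In 15 the groups did not overlap, against 38.4% of all genes. Against mock, the list median was 0.30 with IRF5-4D and 0.69 with IKKβ(EE), above mock in both. Called between the constructs were HLA-DQA1, HLA-DQB1 (-0.87) and HLA-DMB (-0.85), a chain of the molecule that loads peptides onto class II. HLA-DMB read 10.42 and 10.35 with IRF5-4D, 11.29 and 11.18 with IKKβ(EE) and 10.13 and 9.92 in mock. The other members were smaller and not called, such as HLA-DRA (-0.34) and the invariant chain CD74 (-0.39), and CIITA, the class II transactivator, had the 1 positive difference, 0.16. HLA-DQB1 (-0.97 to -0.77) and HLA-DMB (-0.90 to -0.79) were not called without any 1 of the 4 arrays compared, and HLA-DQB1, whose value is from a probe set ending in _x_at, differed by -0.16 without such probe sets and by -0.60 as the mean of all. Of 19 genes of MHC class I and antigen processing none was called; 18 had a difference below 0, the peptide transporters TAP1 and TAP2 at -0.59 and -0.45, and the list median was -0.21 (-0.26 to -0.13 with 1 array left out).

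B cell genes changed in a few members. Of 46 B cell identity genes, FCRLA, an intracellular Fc receptor-like protein of B cells, and FCGR2B, the inhibitory IgG receptor, were higher with IRF5-4D, and SWAP70 (-1.24), a signalling adaptor of activated B cells, was higher with IKKβ(EE). FCRLA read 7.59 and 7.37 with IRF5-4D, 4.71 and 4.58 with IKKβ(EE) and 4.80 and 4.38 in mock, and all 3 of its probe sets were called. FCGR2B read 5.07 and 4.73 against 3.52 and 3.71. KIT, the stem cell factor receptor, was the 1 called of 24 precursor B cell genes, at 9.84 and 9.61 against 7.82 and 7.94 (1.85). The SWAP70 call was lost without IRF5-4D replicate 3 (-1.07), IKKβ(EE) replicate 1 (-1.17) or IKKβ(EE) replicate 3 (-1.32), and that of FCGR2B without IKKβ(EE) replicate 1 (1.19).

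FCRLA and FCGR2B belong to a run of neighbouring genes on chromosome 1. Between FCER1G and FCRLA, 13 genes in RefSeq order were measured, and 6 were called, all higher with IRF5-4D, namely FCER1G (1.77), FCGR2A (2.82), HSPA6 (1.80), FCGR2C (1.72), FCGR2B (1.29) and FCRLA (2.84). FCGR2A, an activating IgG receptor, read 7.41 and 7.30 with IRF5-4D and 4.49 and 4.59 with IKKβ(EE), with an SE of 0.11. FCER1G, the signalling chain shared by several Fc receptors, read 6.55 and 6.34 against 4.69 and 4.67, and HSPA6, an inducible HSP70 gene, 6.96 and 7.10 against 5.20 and 5.25. The FCGR2 genes are near copies of each other, so their probes cannot be assigned with certainty; FCGR2C was read on a probe set ending in _x_at and differed by 0.17 without such probe sets. As the mean of probe sets FCGR2A came to 1.58 and HSPA6 to 1.19. The neighbour FCGR3B differed by 0.02 and the 6 measured genes between FCER1G and FCGR2A by -0.18 to 0.22. FCER1G was not called without any 1 of the 4 arrays compared (1.67 to 1.88) and FCGR2C not without IRF5-4D replicate 1 (1.83), IRF5-4D replicate 3 (1.60) or IKKβ(EE) replicate 1 (1.39). A second run on chromosome 6 held LTA, TNF, LTB and LST1, of which all but TNF were called higher with IRF5-4D, LST1 (1.25) not without IRF5-4D replicate 3 (1.07) or IKKβ(EE) replicate 1 (1.11), and on chromosome 10 the neighbours ACTA2 and FAS were both higher with IKKβ(EE). These runs were picked after the calls were seen. Other called neighbours, with starts within 2 Mb, differed in opposite directions. Examples are FAS (-3.16) and IFIT1 (1.23) on chromosome 10, and LST1 (1.25) and HLA-DQA1 (-4.36) on chromosome 6.

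Costimulation and adhesion genes were called mainly on the IKKβ(EE) side, with LAMP3, ICAM1, CD86 and CD83 against CD48 (1.84), a ligand of the SLAM family, out of 29 measured. CD48 read 10.64 and 10.57 with IRF5-4D, 8.83 and 8.71 with IKKβ(EE) and 9.22 and 9.35 in mock; its call was lost without IRF5-4D replicate 1 (1.81) or IRF5-4D replicate 3 (1.87), and the mean of its probe sets gave 1.21. Of 48 genes associated with Hodgkin lymphoma, CCL5 and LTA were higher with IRF5-4D, and BCL2A1, EBI3, TNFRSF9, CD70 and FSCN1 (-1.63) were higher with IKKβ(EE). FSCN1, the actin bundler that marks Reed-Sternberg cells, read 6.58 and 6.55 with IRF5-4D and 8.22 and 8.16 with IKKβ(EE). The interleukin 4 receptor gene IL4R read 5.51 and 5.24 against 6.53 and 6.71 (-1.25).

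Of 27 apoptosis genes, BCL2A1 and FAS were called. Of 19 p53 targets, FAS and the stress protein gene SESN1 (-1.16) were called, 15 had a difference below 0 and the list median was -0.45 (-0.47 to -0.36 with 1 array left out). SESN1 read 7.77 and 7.92 with IRF5-4D, 8.91 and 9.09 with IKKβ(EE) and 8.21 and 8.06 in mock, and was not called without any 1 of the 4 arrays compared (-1.24 to -1.07). CDKN1A, the cyclin-dependent kinase inhibitor p21, differed by -0.71 and was not called. Of 41 cell cycle genes none was called; 30 had a positive difference, CDC25A at 0.44 the highest, and the list median was 0.18 (0.12 to 0.27 with 1 array left out). NR4A3, an orphan nuclear receptor of the immediate early response, was the 1 called of 33 AP-1 and immediate early genes, with 5.38 and 5.36 against 7.57 and 7.22 (-2.02, or -0.77 as the mean of its probe sets). HSPA6 was the 1 called of 23 heat shock and stress genes. No member was called of 23 JAK-STAT and SOCS genes, where SOCS1 differed by -0.71 and TYK2 by -0.63 (limma adjusted p = 0.06). TYK2 has 1 probe set, so its difference did not change in the fit on means of probe sets. It was called there (limma adjusted p = 0.0445) and after another quantile normalization (0.0471). Nor was any called of 7 GIMAP GTPases, where GIMAP8 differed by 0.87 and GIMAP4 by -0.64.

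Markers of other cell types were mostly low. GZMA was the 1 called of 27 T and NK cell markers, FCER1G of 22 myeloid markers and ACTA2 of 22 stromal and epithelial markers, while 20, 18 and 16 members of these lists lay below the gene median in all 4 arrays. The mean level of the T and NK markers was 5.11 to 5.15 with IRF5-4D and 5.02 to 5.09 with IKKβ(EE), and that of the myeloid markers 5.11 to 5.16 and 4.93 to 4.95. None of 13 reference genes was called, with SDHA at 0.28 and TBP at 0.27 the largest and a list median of 0.03.

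**Figure D5:**
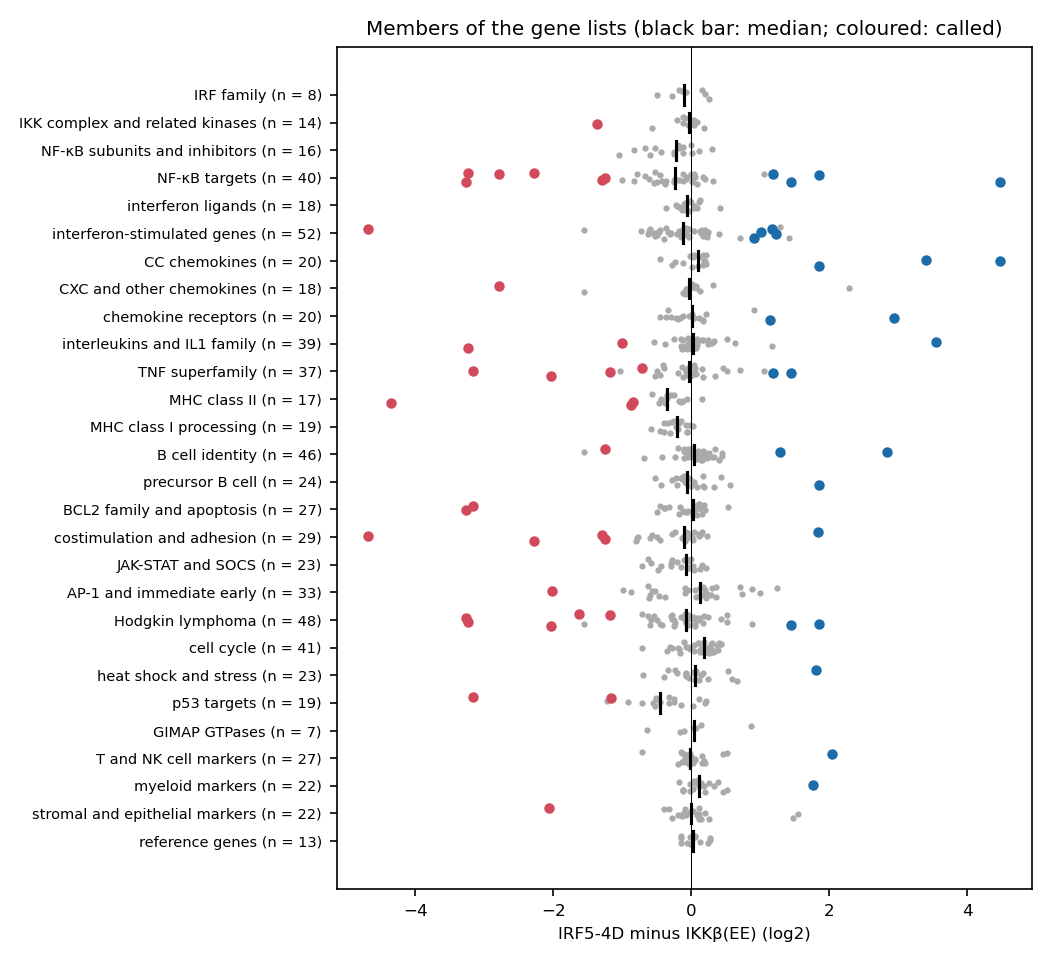
Difference IRF5-4D minus IKKβ(EE) (x axis, log2) of each measured member of the 28 gene lists (y axis, with the number measured); blue and red points were called, grey points were not, and a black bar marks the list median. List medians lie between -0.45 (p53 targets) and 0.18 (cell cycle), and the called members stand out as single genes, to the left for MHC class II and the TNF receptors and to the right for CC chemokines.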

How the data were processed

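Gene expression was measured on 8 Affymetrix U133 Plus 2.0 arrays. The authors deposited log2 expression values, made with RMA per the submitters' processing notes, which corrects background, quantile-normalizes and summarises probes; of its version and chip definition, the sources used here say nothing. Of 54675 probe sets, 62 controls and 13522 without exactly 1 symbol were left out. Each of 19775 genes was represented by the probe set of highest mean level over all 8 arrays. The arrays compared entered that choice, which can favour a probe set that rises with a construct. One group-means model was fitted to all 8 arrays in limma 3.58.1 (R 4.3.3, lmFit and eBayes, 4 residual and 5.09 prior degrees of freedom), with Benjamini-Hochberg adjustment over all genes and calls at 0.05. The scripts were tested on simulated data.

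Named are the transfected genes, the 14 largest called differences each way with separate groups, and up to 3 called members per list, with further called members where a count is small. The comparison, lists and tests were chosen with earlier results of these data known. Promoter windows came from a RefSeq table. Alternatives were other probe set summaries, filters, normalizations, variance models, a replicate block, the 4 arrays alone, other call rules and leaving out each array; a construct left with 1 array takes its spread from the other groups. The number of arrays limits the precision. Probe intensities were not used here.

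Whether the numbers 1 and 3 pair arrays was checked: deviations from group means correlated between -0.073 and 0.343 over the pairs of groups.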

Additional observations from a re-analysis of the deposited data

Results flagged for a closer look

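Probe sets without exactly 1 gene symbol were outside the comparison of genes. In the fit of every probe set, 29 of the 13522 such probe sets were called between the constructs, 13 higher with IRF5-4D and 16 higher with IKKβ(EE). The largest was 231597_x_at, which has no symbol here, with a difference of 5.85 (SE 0.48, limma adjusted p = 0.00114). It read 11.04 and 9.47 with IRF5-4D, 4.56 and 4.25 with IKKβ(EE), 4.88 and 4.50 in mock, and 11.85 and 10.69 with both variants. It was thus high in all arrays given IRF5-4D, alone or with IKKβ(EE), and low in the others. The suffix marks probes that may bind several transcripts. On the IKKβ(EE) side, 212671_s_at, which the annotation gives to HLA-DQA1 and HLA-DQA2 together, differed by -4.55, and 209863_s_at, which has no symbol here, by -2.94.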

How the results depend on the processing

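The count of 151 called genes (62 higher with IRF5-4D, 89 with IKKβ(EE)) moved by more than 1.5 times in a fit of every probe set on its own, to 244 (106 and 138), and among genes above the median level, to 95 (40 and 55), which tests fewer genes. With the replicate number as a block the count higher with IKKβ(EE) was 142, out of 225 in all, and all 151 genes were kept. CYLD and TYK2 were called there as well (limma adjusted p = 0.0257 and 0.0445). Averaging the probe sets within each gene gave 113 calls and kept 103 of the 151. Part of the calls thus rested on the probe set chosen. Of 93 called genes with several probe sets, 41 had another one called in the same direction. For 58 of the 93, another probe set differed by under 0.5 between the constructs, and a gene can be in both counts. Leaving out 1 array gave 42 to 182 calls, 17 to 75 higher with IRF5-4D and 18 to 107 higher with IKKβ(EE). The difference of IKBKB probe set 211027_s_at stayed called in every fit run on it. The gene itself, represented by 209341_s_at, was not called in the main fit (-0.09) but was as the mean of its probe sets (-2.48). Of 1221 recomputed values of the transfected genes, the largest differences and the leading list members, 1103 kept their side of the threshold. Another 113 lost the call, 5 gained it and no called value among the 1221 changed sign. Outside these values, called genes did change sign without _x_at probe sets. TNFRSF4 turned from -0.71 to 0.19, ANXA2 from 1.73 to -0.07 and ANK1 from -0.90 to 0.02. The deposited values carry no detection calls, so differences of genes near the lower quartile of an array have uncertain size.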
